A study of Mus musculus with 10 samples.

Results

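The genes described here are the IFI200 family of mouse chromosome 1, followed in regulatory T (Treg) cells with and without Fntb. Their members were chosen by symbol, as 10 named genes of the family, and the family itself was selected on the rise of Ifi213 in the same comparison of Fntb KO with WT. Of the 10 genes, 8 had a probe set whose annotation names that gene alone, with 1 probe set each, out of 41345 probe sets on the array. These are Aim2, Ifi213, Ifi209, Ifi208, Ifi207, Ifi204, Mndal and Ifi205. Ifi203 was named only on a probe set shared with LOC100862473 and Ifi203-ps, and Ifi206 was named on no probe set, so neither has a value of its own.

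Gene expression was measured on 10 one-colour Affymetrix arrays, 5 of WT and 5 of Fntb KO Treg cells. All samples were CD4+ YFP+ cells of mouse chimeras, taken from the spleen and pLN, with the chimeras either WT or Foxp3CreFntbfl/fl, in which a Cre driven by the Treg gene Foxp3 removes the floxed Fntb. Fntb encodes the beta subunit of protein farnesyltransferase, which adds a farnesyl group to target proteins. The labels give no age, strain or treatment, do not say whether WT donors carried Cre, do not say how many animals were used, and do not describe the host cells of the chimeras.

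IFI200 proteins belong to the PYHIN family. Most combine an N-terminal pyrin domain, which binds other pyrin domains, with a HIN domain that binds DNA, and many of their genes are induced by interferons. AIM2, the best known member, senses DNA in the cytosol and assembles an inflammasome with the adaptor Pycard and the protease Casp1. The mouse genome holds a larger set of these genes than the human genome, arranged side by side, and the roles of several of them in T cells are little known.

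The median log2 level of an array was between 4.09 and 4.25, and the correlation of arrays within a group was 0.964 to 0.990 over all probe sets. The 3 arrays with the lowest medians were Fntb KO 2, WT 2 and Fntb KO 1, and results are also given without them. Fntb itself averaged 6.12 ± 0.16 on WT arrays against 5.47 ± 0.12 on Fntb KO arrays (SD, n = 5 each), and was lower in every Fntb KO array than in any WT array. The difference was -0.65 (SE 0.0966, limma adjusted p = 0.0175), and the place of its probe set against the deleted part was not examined. Its adjusted p was 0.134 when the 3 low-median arrays were dropped, and up to 0.0613 when WT 4, WT 5 or Fntb KO 3 was, which ended the call. Foxp3 averaged 10.67 ± 0.03 on WT against 10.53 ± 0.05 on Fntb KO arrays (SD, n = 5 each), also lower in every Fntb KO array than in any WT array, with a difference of -0.14 that did not pass (limma adjusted p = 0.625). The T cell markers stayed far above the array background, with no measured marker of that list at or below the level of 4.19 explained beside Ifi205. Nothing in the labels ties the 5 samples of a group to different animals. The p-values therefore reflect the spread among these arrays alone, and that spread may be technical.

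Promoter windows are shown first, so that the values of Ifi213 can be read beside those of the genes whose promoters are nearly the same as its own. RefSeq windows of assembly GRCm38.p6, from 250 bases before to 50 after the start of a gene, were found for 12 genes of the cluster, Ifi213, Ifi208, Ifi206 and Ifi209 among them. Capitals mark GAAANNGAA, the core letters of the interferon-stimulated response element bound by interferon-activated transcription factors, searched on both strands.
Ifi213, chr1:173599223-173599522, strand -: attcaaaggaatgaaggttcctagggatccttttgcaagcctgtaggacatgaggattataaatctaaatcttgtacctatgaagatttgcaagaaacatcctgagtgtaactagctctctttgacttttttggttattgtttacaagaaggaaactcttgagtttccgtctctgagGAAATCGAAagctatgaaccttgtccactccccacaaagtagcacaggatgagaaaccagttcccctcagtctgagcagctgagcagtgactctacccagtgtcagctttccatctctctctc
Ifi208, chr1:173673415-173673714, strand +: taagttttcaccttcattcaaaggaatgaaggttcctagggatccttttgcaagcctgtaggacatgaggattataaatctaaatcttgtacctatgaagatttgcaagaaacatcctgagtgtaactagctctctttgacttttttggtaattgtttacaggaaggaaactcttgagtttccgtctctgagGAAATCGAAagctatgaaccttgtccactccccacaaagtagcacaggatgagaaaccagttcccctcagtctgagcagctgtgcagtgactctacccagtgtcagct
Ifi206, chr1:173491269-173491568, strand -: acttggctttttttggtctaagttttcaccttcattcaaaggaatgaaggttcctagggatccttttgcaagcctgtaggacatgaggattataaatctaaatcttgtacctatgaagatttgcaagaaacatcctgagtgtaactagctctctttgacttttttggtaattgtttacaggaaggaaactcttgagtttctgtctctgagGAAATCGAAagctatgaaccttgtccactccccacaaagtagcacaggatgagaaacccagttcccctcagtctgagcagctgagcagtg
Ifi209, chr1:173630609-173630908, strand +: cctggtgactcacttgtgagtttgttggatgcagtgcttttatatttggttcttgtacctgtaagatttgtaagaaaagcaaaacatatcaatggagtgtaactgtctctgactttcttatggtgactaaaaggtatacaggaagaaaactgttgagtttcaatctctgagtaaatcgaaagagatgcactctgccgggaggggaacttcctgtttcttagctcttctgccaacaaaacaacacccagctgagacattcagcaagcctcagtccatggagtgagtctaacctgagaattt
The Ifi213 and Ifi208 windows overlap by 285 aligned bases with 282 identical, or 98.9%. Ifi206 matched Ifi213 at 263 of 267 aligned bases, or 98.5%. The window of Ifi209, the next measured gene on the chromosome, was 58.7% identical to that of Ifi213 over the aligned part, and that of Ifi214, on the other side, 59.5%.

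The core GAAANNGAA was found in 10 of the 14 windows of the cluster, from 9 of its 12 genes with a window, and in 8.56% of all 32851 windows in the table. Its first base lay at position -73 from the start of Ifi213, at -58 from that of Ifi208 and at -40 from that of Ifi206. Ifi209, Aim2 and Ifi202b had no match in their windows, which says only that these letters are not there.

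Ifi213 was the member with a clear shift. It is also known as Pydc4, after its pyrin domain. Its levels in the WT arrays were 5.33, 4.61, 4.90, 4.05 and 5.04 on the log2 scale. Its levels in the Fntb KO arrays were 7.13, 7.12, 6.77, 6.12 and 6.85. All Fntb KO arrays lay above all WT arrays, with a gap of 0.79 between the lowest Fntb KO and the highest WT array. The means were 4.79 ± 0.49 and 6.80 ± 0.41 (SD, n = 5 each), a difference of 2.02 (SE 0.253, 95% interval 1.46 to 2.57) or 4.04-fold. This difference led to the choice of the family, so it is a description and carries no test. Its size and interval make no allowance for that choice. Groups that did not overlap, in either direction, were seen for 2.19% of all probe sets. Without WT 2, Fntb KO 1 and Fntb KO 2 the means were 4.83 and 6.58, a difference of 1.75, and with any single array left out it was 1.83 to 2.18.

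**Figure D1:**
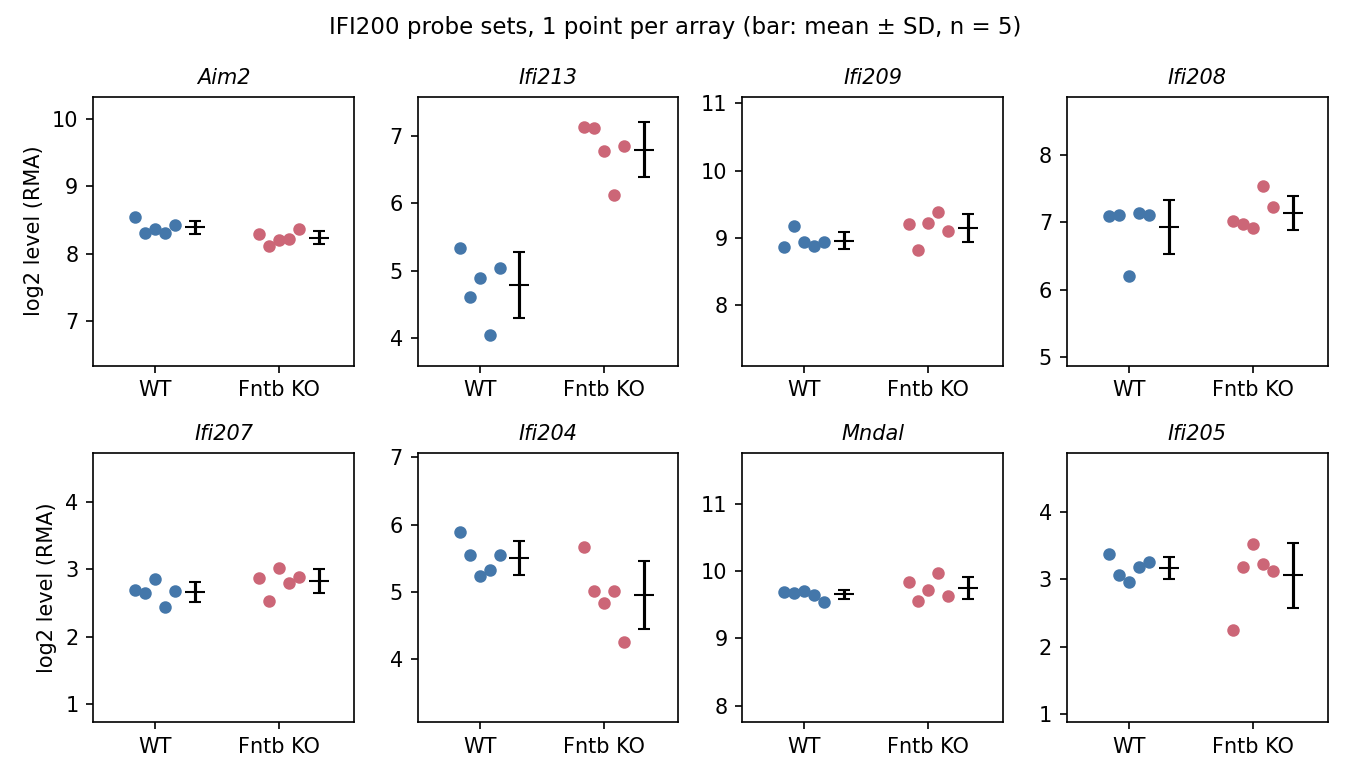
Log2 levels (RMA, vertical axis, 4 log2 units in every panel) of the 8 IFI200 probe sets in WT (blue) and Fntb KO (red) Treg cells. Points are the 5 arrays of each group in the order of their replicate names, and the black bar is the mean ± SD. In the Ifi213 panel the points of the groups lie 0.79 apart, while in each of the other 7 panels they overlap.

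No other member was called in either direction. Of the 8 members' probe sets 1, Ifi213, was called higher and 0 lower by limma at an adjusted p under 0.05, where 0.116% of all probe sets were called higher and 0.283% lower. Nothing is read from the count for Ifi213, since the comparison chose it, and without the 3 low-median arrays 0 members were called. Among the other 7 members, 4 had a higher and 3 a lower mean in Fntb KO, and their median difference was 0.09, beside 0.01 for all probe sets. Of the 7, 1 had an unadjusted p under 0.05, Ifi204, where 3.83% of all probe sets had one in the higher and 4.21% in the lower direction. The highest upper bound of the 95% intervals of these 7 was 0.64, or 1.55-fold.

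Ifi208, also known as Pydc3, has the promoter window closest to that of Ifi213. Its levels were 7.10, 7.11, 6.20, 7.15 and 7.11 in WT, and 7.03, 6.98, 6.92, 7.54 and 7.24 in Fntb KO. The groups overlapped, and WT 3 lay well below all other arrays. The difference was 0.21 (SE 0.194, 95% interval -0.22 to 0.64, adjusted p = 0.894), and it was 0.02 without WT 3. Ifi206, whose window is nearly as close, has no probe set that names it. Probe sequences were not used, so whether the Ifi213 probe set also reads RNA of its near copies was not tested.

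Ifi209, the next gene after Ifi213, gave 8.87, 9.18, 8.94, 8.88 and 8.93 in WT. In Fntb KO it gave 9.21, 8.82, 9.22, 9.38 and 9.10. The groups overlapped, with WT 2 the highest WT array and Fntb KO 2 the lowest array of all. The difference was 0.19 (SE 0.11, 95% interval -0.06 to 0.43, adjusted p = 0.758). Ifi214, the measured gene on the other side of Ifi213, was 6.94 ± 0.20 in WT and 6.82 ± 0.24 in Fntb KO (SD, n = 5 each), a difference of -0.12 (SE 0.135, adjusted p = 0.917).

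Mndal and Ifi203 encode HIN-domain proteins of the nucleus. Mndal varied least among the members in WT, with 9.69, 9.68, 9.71, 9.65 and 9.54, and it was 9.84, 9.56, 9.72, 9.97 and 9.63 in Fntb KO. The groups overlapped, at a difference of 0.09 (SE 0.0904, 95% interval -0.11 to 0.29, adjusted p = 0.906). The probe set shared by Ifi203, LOC100862473 and Ifi203-ps was 9.08 ± 0.09 and 9.21 ± 0.10 (SD, n = 5 each), a difference of 0.12 (SE 0.0777, adjusted p = 0.780). It cannot be assigned to Ifi203 alone.

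Aim2, the inflammasome-forming DNA sensor, was 8.55, 8.31, 8.36, 8.31 and 8.42 in WT and 8.29, 8.12, 8.21, 8.22 and 8.36 in Fntb KO. The groups overlapped by 0.05 on the log2 scale, with the lowest value in Fntb KO 2. The difference was -0.15 (SE 0.0789, 95% interval -0.33 to 0.02, adjusted p = 0.698). It lay between -0.18 and -0.11 with each array left out in turn.

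Ifi204, the mouse relative of human IFI16 and a DNA sensor that acts with STING, had the largest difference among the 7 members other than Ifi213, and in the opposite direction. It was 5.89, 5.54, 5.23, 5.32 and 5.54 in WT and 5.66, 5.01, 4.83, 5.01 and 4.25 in Fntb KO. Only Fntb KO 1 reached the WT range, and Fntb KO 5 was lowest. The difference was -0.55 (SE 0.225, 95% interval -1.05 to -0.06), with an unadjusted p = 0.0323 and a limma adjusted p = 0.554, which did not pass. It was -0.80 without the 3 low-median arrays and -0.38 without Fntb KO 5. The probe set naming both Ifi211 and Ifi204 also had a lower mean, 6.67 ± 0.25 against 6.31 ± 0.28 (SD, n = 5 each), a difference of -0.36 (SE 0.158, adjusted p = 0.603), and Fntb KO 5 was lowest there too at 5.82. Ifi204 is strongly expressed in macrophages, so monocyte and macrophage markers are given beside it. Of 9 genes in that list 8 were measured, and 5 of them (Fcgr1, Adgre1, Itgam, Cd14 and Cd163) were at or below 4.19 in both groups. The highest were Cd68, at 6.82 in WT and 6.87 in Fntb KO, and Lyz2, at 6.49 and 6.51. The summed level of the 8 markers ran from 7.98 to 8.36 in WT and from 7.68 to 8.45 in Fntb KO on the log2 scale. Their part in the values of Ifi204 was not tested. In sorted cell pools, fewer cells with a transcript and less of it per cell cannot be told apart.

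Ifi205 and Ifi207 lay near the array background. As a guide to that background, 1092 olfactory receptor probe sets, genes that T cells do not use, had a median of 2.51 and a 95th percentile of 4.19. Ifi205, which is induced by interferon in mouse macrophages, was 3.38, 3.07, 2.96, 3.19 and 3.26 in WT and 2.25, 3.18, 3.52, 3.23 and 3.13 in Fntb KO. Only Fntb KO 1 stood apart, and the difference of -0.11 (SE 0.204, adjusted p = 0.962) became 0.09 without it. Ifi207 was 2.66 ± 0.14 in WT and 2.82 ± 0.18 in Fntb KO (SD, n = 5 each), a difference of 0.16 (SE 0.107, adjusted p = 0.805). Ifi202b, which lacks a pyrin domain, was at 2.20 and 2.24, and Ifi203-ps at 2.37 and 2.52. The WT 4 value of Ifi213 (4.05) also lay below 4.19. The guide was chosen with earlier results of these data known.

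**Figure D2:**
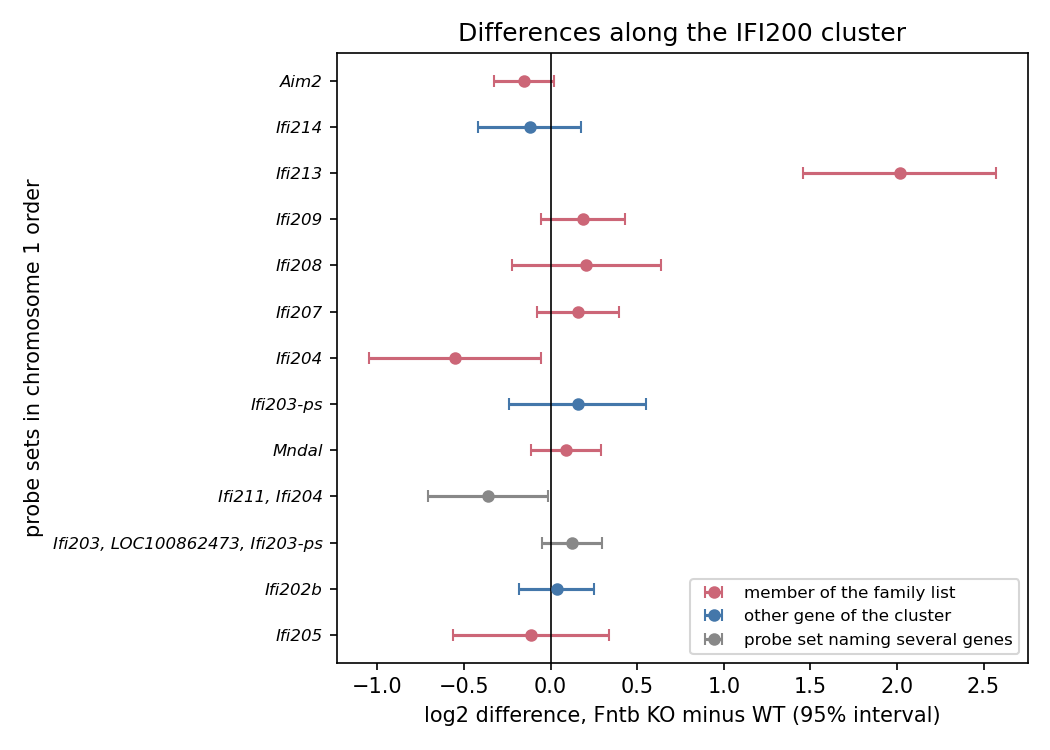
Log2 difference of Fntb KO minus WT (horizontal axis) with its 95% interval for the 13 probe sets that name a gene of the cluster, in the order of the genes on chromosome 1 (vertical axis). Red points are family members, blue points other genes of the cluster and grey points probe sets naming several genes. Ifi213 stands at 2.02, and the other points lie between -0.55 and 0.21. The difference of Ifi213 led to the choice of the family, and its interval makes no allowance for that.

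Genes flanking the cluster gave no calls. The 10 measured protein-coding genes before Aim2 and the 10 after Ifi205 hold 15 olfactory receptors, and all 20 lay below 4.19 in both groups. The guide is drawn from olfactory receptor probe sets, so the place of those 15 below it was nearly given. At such levels a change could hardly be seen, and nothing about the region is read from these 20 genes. Their differences ran from -0.23 to 0.21 with a median of 0.00, and 0 were called by limma. Over all probe sets 0.116% were called higher and 0.283% lower. At an unadjusted p under 0.05 there was 1 of the 20, Olfr218 (0.21), named after its value was seen. Over all probe sets 3.83% were higher and 4.21% lower at that level. Cadm3, an adhesion molecule and the nearest measured gene before Aim2, differed by -0.05, and Olfr433, the nearest after Ifi205, by 0.01.

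Array-to-array variation of Ifi213 within the groups was compared with that of its family. Over the 10 arrays, Pearson correlations of the deviations from the group means with those of Ifi213 were 0.47 for Aim2, 0.34 for Ifi204, 0.24 for Ifi207, -0.18 for Ifi205, -0.39 for Ifi208, -0.43 for Mndal and -0.45 for Ifi209. The middle 95% of 22179 genes ran from -0.67 to 0.63, so each member lay inside it. The genes most like Ifi213 by this measure were Ccl9 (0.92), Uckl1os (0.89), Elmod2, Fmr1os and Olfr1250 (0.88 to 0.89). These values are descriptions of 10 arrays that share their processing.

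**Figure D3:**
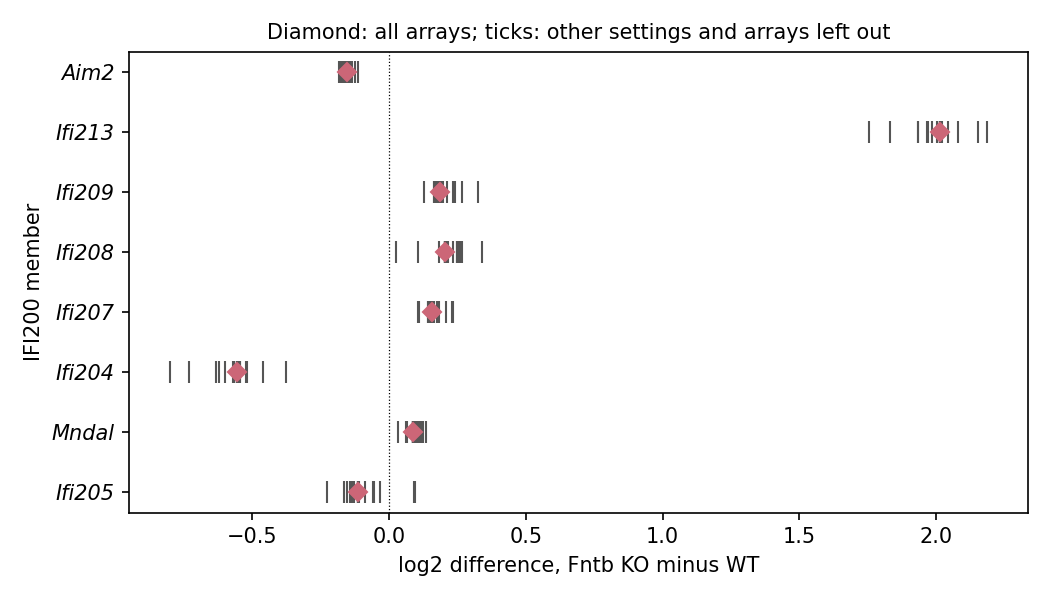
Log2 difference of Fntb KO minus WT (horizontal axis) of the 8 members (vertical axis) with all arrays (red diamond) and under up to 21 other settings, 10 of which leave out 1 array (ticks). Ifi205 and Ifi207 have 20, since a limit on the median level leaves them out. Ifi213 ran from 1.75 to 2.18, Ifi204 from -0.80 to -0.38, and Ifi205 lay on both sides of 0.

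Genes of the inflammasome, the complex that Aim2 can start, were lower more often than higher. Of 19 measured genes 2 fell and 0 rose, the list's median difference was -0.14 beside 0.01 for all probe sets, and 15 had a negative difference. Over all probe sets 0.283% were called lower and 0.116% higher. At an unadjusted p under 0.05, 5 genes of the list were lower, or 26.3%, and 1 higher, or 5.26%, beside 4.21% and 3.83% of all probe sets. Il1b, Nlrp6, Mefv, Nlrc4, Nlrp1a, Nlrp3, Il18 and Nlrp1b lay below the background guide of 4.19 in both groups. Among them were the 1 higher gene, Il1b (3.29 in WT, 3.61 in Fntb KO), and 1 of the 5 lower genes, Nlrp1b (3.75, 3.29). Naip5, a receptor of the NAIP family that detects bacterial flagellin, was 6.15, 6.37, 6.47, 6.20 and 6.25 in WT and 5.35, 5.73, 5.56, 5.42 and 5.55 in Fntb KO. The groups did not overlap, and it fell 1.70-fold (SE 0.0962 on the log2 scale, adjusted p = 0.00699). Naip2, which detects a rod protein of bacterial secretion systems, fell 1.76-fold from 5.29 ± 0.27 to 4.47 ± 0.15 (SD, n = 5 each, adjusted p = 0.0289). Leaving out any array but WT 1 ended the call of Naip2 (adjusted p up to 0.0954), at differences of -0.91 to -0.74, and without the 3 low-median arrays 0 genes of the list were called. Naip2 and Naip5 are close copies of each other, so the probe sets may share signal. Casp1, the protease that Aim2 inflammasomes activate, differed by -0.59 (adjusted p = 0.187) and Casp4, which responds to bacterial lipopolysaccharide, by -0.52 (adjusted p = 0.0856). Both had groups that did not overlap, neither passed, and both are named after their values were seen. Of the 19 genes, 4 had groups that did not overlap with Fntb KO lower and 0 with Fntb KO higher. Over all probe sets the share was 2.19% in either direction. The adaptor Pycard (-0.11) and the pore former Gsdmd (-0.10) did not pass.

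Type I interferon-stimulated genes, which many family members are counted among, had 0 calls in either direction by limma over 36 measured genes. Their median difference was 0.12, 26 had a positive difference, and at an unadjusted p under 0.05 there were 9 higher, or 25%, and 2 lower, or 5.56%, beside 3.83% and 4.21% of all probe sets. Ifit1, an antiviral RNA-binding protein, went from 6.26 ± 0.27 to 6.93 ± 0.28 (SD, n = 5 each), a difference of 0.66 (adjusted p = 0.159). Mx2, an interferon-induced GTPase, differed by 0.63 (adjusted p = 0.454). With only probe sets of 1 gene symbol, and with 1 probe set per gene, 1 gene over the interferon, inflammasome and DNA sensing lists was called higher. It was neither Ifit1 (limma adjusted p = 0.0576 and 0.0559) nor Mx2 (0.261 and 0.259), and which list held it is not given here. Groups did not overlap for 1 gene in each direction, beside 2.19% of all probe sets in either direction. These were Eif2ak2 (0.59, limma adjusted p = 0.0958) and Epsti1 (-0.43, limma adjusted p = 0.0718), and both are named after their values were seen. Averaged over the 36 genes, the deviation from each gene's mean ran from -0.16 to 0.04 over the WT arrays and from -0.03 to 0.19 over the Fntb KO arrays, so the groups overlapped.

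No interferon or interferon receptor gene was called higher. Of 8 measured interferon genes 1 fell and 0 rose, beside 0.283% and 0.116% of all probe sets. Ifnb1 (2.42 in WT, 2.51 in Fntb KO), Ifne (2.67, 2.71) and Ifna2 (2.57, 2.58) lay below the background guide of 4.19. Above it in both groups were Ifnl2 (7.13 in WT, 7.13 in Fntb KO), Ifna4 (6.93, 6.77), Ifnl3 (5.76, 5.91) and Ifnk (4.35, 4.46). None of these was called. Ifng, the interferon of activated T cells, fell 2.22-fold, with 4.88 ± 0.36 in WT against 3.72 ± 0.25 in Fntb KO (SD, n = 5 each, adjusted p = 0.0224). Every Fntb KO array of Ifng lay below the background guide, so the size of its fall is uncertain. Leaving out any array but WT 1, WT 2 or Fntb KO 4 ended the call of Ifng (adjusted p up to 0.0806), at differences of -1.26 to -1.06. Of 20 measured receptor and JAK-STAT genes 0 were called, with a median of -0.10. Irf8, a transcription factor of immune cells, differed by -0.38 and Socs3, an inhibitor of JAK kinases, by -0.29. At an unadjusted p under 0.05, 1 was higher (5%) and 2 were lower (10%), beside 3.83% and 4.21% of all probe sets. Of 26 measured interferon-gamma-induced genes 1 fell and 0 rose, beside 0.283% and 0.116% of all probe sets, with a median of -0.07. At an unadjusted p under 0.05 there were 3 lower, or 11.5%, and 0 higher, beside 4.21% and 3.83% of all probe sets. Cxcl10, a chemokine that draws activated T cells, fell 2.07-fold from 5.18 ± 0.38 to 4.13 ± 0.19 (SD, n = 5 each, adjusted p = 0.0314). Its Fntb KO mean also lay below the background guide of 4.19. Its call ended with any array but WT 3 or WT 4 left out (adjusted p up to 0.0820), at differences of -1.15 to -0.89, and with array weights (adjusted p = 0.0605).

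Genes of cytosolic DNA sensing gave 0 calls over 22 measured members, with a median of 0.03. At an unadjusted p under 0.05 there were 0 higher and 2 lower, or 9.09%, beside 3.83% and 4.21% of all probe sets. Rnaseh2b, a subunit of the enzyme that removes RNA from DNA, differed by -0.51 (adjusted p = 0.418). Sting1, the adaptor that relays DNA sensing to interferon genes, was 9.14 ± 0.10 in WT and 8.90 ± 0.19 in Fntb KO (SD, n = 5 each), a difference of -0.24 (adjusted p = 0.592). Without the 3 low-median arrays, 0 genes of these interferon and DNA sensing lists were called.

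**Figure D4:**
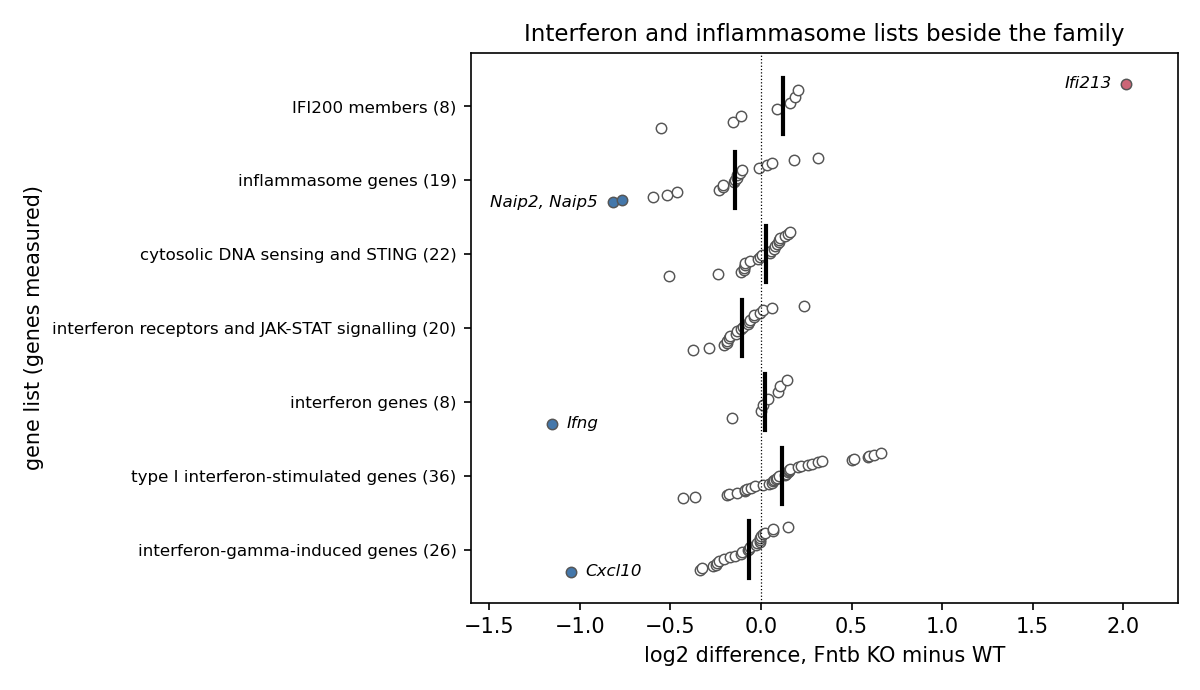
Log2 difference of Fntb KO minus WT (horizontal axis) of every measured gene of 7 lists (vertical axis, number measured in brackets). Filled points were called at an adjusted p under 0.05, red for higher and blue for lower, open points were not, and black bars are the list medians. Ifi213 lies at 2.02 and is drawn filled, though its difference led to the choice of the family and carries no test. The called genes of the other lists, Naip2, Naip5, Ifng and Cxcl10, all lie below 0.

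Markers of other cells that the sort could hold were followed, since myeloid and B cells express several IFI200 genes. Summed marker levels of B cells ran from 6.90 to 7.21 in WT and from 6.81 to 7.15 in Fntb KO, with Ebf1, Blk and Ms4a1 of 7 measured at or below 4.19. Those of dendritic cells ran from 8.04 to 8.40 and from 7.88 to 8.25, with Batf3, Flt3, Xcr1 and Itgax of 8 at or below 4.19. Neutrophil markers ran from 6.56 to 6.80 in WT and from 6.50 to 7.83 in Fntb KO, with S100a8 at 3.75 ± 0.25 and 4.80 ± 1.03 (SD, n = 5 each) and Mmp9, Ly6g, Ltf, Retnlg and Camp of 8 at or below 4.19. Markers of CD8 T or NK cells ran from 8.47 to 8.94 and from 8.21 to 8.77, with Cd8a, Eomes, Ncr1, Gzma and Klrb1c of 8 at or below 4.19. Those of erythroid cells ran from 5.62 to 5.78 and from 5.53 to 6.02, with Klf1, Epor and Car1 of 4 at or below it. Markers above 4.19 in both groups included Cd79b of B cells (5.46 in WT, 5.06 in Fntb KO) and Bst2 of dendritic cells (7.42, 7.05). Others were S100a9 of neutrophils (4.56, 5.22), and Cd8b1 (6.75, 7.01) and Prf1 (5.83, 6.04) of CD8 T or NK cells. S100a8 was 5.27, 3.59, 6.25, 4.74 and 4.15 in the Fntb KO arrays. In the same order Ifi213 was 7.13, 7.12, 6.77, 6.12 and 6.85, and a relation between them was not tested. The marker with the largest difference was Cd22 (-0.43) for B cells, Csf1r (-0.28) for monocytes and macrophages, Ccr9 (0.55) for dendritic cells, Car1 (-0.23) for erythroid cells, Zap70 (-0.36) for T cells and Nkg7 (-0.79) for CD8 T or NK cells, and none of these passed. Nkg7, a granule protein of cytotoxic cells, had groups that did not overlap and an adjusted p of 0.0546. It was called in 5 of the 21 other settings, among them 1 probe set per gene (0.0126), and not in the other 16 (up to 0.237 without the 3 low-median arrays, apart from the minimum change of 0.5). Treg markers had lower means in Fntb KO more often than higher ones. Their summed level ran from 12.93 to 13.04 in WT and from 12.67 to 12.89 in Fntb KO, without overlap, and that of T cell markers from 13.28 to 13.53 and from 13.15 to 13.43. Of 8 Treg markers 7 had a negative difference, the median was -0.31, and 5 were lower and 0 higher at an unadjusted p under 0.05. Over all probe sets 4.21% were lower and 3.83% higher at that level, and 2.19% had groups that did not overlap. Groups did not overlap for Nrp1, Foxp3 and Ctla4, an inhibitory receptor of Treg cells that differed by -0.39 (adjusted p = 0.154) and is named after its value was seen. Of this list 1 was called lower and 0 higher, beside 0.283% and 0.116% of all probe sets. Nrp1, a semaphorin receptor, fell by 0.90 on the log2 scale (adjusted p = 0.0164), a call lost with WT 3, WT 5 or Fntb KO 3 left out (adjusted p up to 0.0584) and without the 3 low-median arrays (0.102). The part of other cells, and of the differences in Treg markers, in the rise of Ifi213 was not tested.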

How the data were processed

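The log2 values deposited by the authors come from RMA in Affymetrix Expression Console 1.1, per the submitters' processing notes, with no further settings named there. RMA corrects background, equalises the arrays' distributions and summarises the probes of a probe set. Per the labels' protocols, RNA was amplified and biotin-labelled with NuGEN kits. The authors' values and the series matrix were identical (largest difference 0).

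GEO's platform annotation gave 1 gene symbol for 23521 of 41345 probe sets, several for 1820 and none for 16004. Of those with 1 symbol, 23328 matched a RefSeq gene (GRCm38.p6) by Entrez identifier, and 0 symbols differed. RefSeq served for names, gene order and the promoter windows only, since no build is named in the files.

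All 41345 probe sets were fitted with limma 3.58.1 under R 4.3.3, by lmFit and eBayes, Fntb KO minus WT, no covariate, and Benjamini-Hochberg adjusted over all of them. A call is an adjusted p under 0.05, and an interval is the fit's 95% interval. For list genes with several probe sets the one with the highest mean was taken, and no list was tested as a set. The script was tested on simulated data. Promoter windows were aligned with Biopython 1.88. Alternatives changed the probe sets kept, the scaling, the limma options and the arrays used. Precision is limited by 5 arrays per group. Replicate numbers follow the order of accessions and link no WT array to a Fntb KO array.

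Members, lists, tests and alternatives were chosen with earlier results of these data known. The named genes are all members, Fntb and Foxp3, up to 4 called members per list with the largest change (or 2 if none was called), the marker with the largest change per marker list, the 5 genes most like Ifi213, and the nearest gene on each side of the cluster. Outside this rule, Ifi202b is named as a gene of the cluster, and Pycard and Gsdmd for their role beside Aim2. Other markers, interferon genes and inflammasome genes are named for their place above or below background. Casp1, Casp4, Ctla4, Eif2ak2, Epsti1 and Olfr218 are named after their values were seen.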

Additional observations from a re-analysis of the deposited data

Results flagged for a closer look

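In 66 groups of 5 arrays, 1 array was set apart from the other 4 by more than Dixon's critical value of 0.71 in 4 groups, where chance gives about 1 in 20. Ifi209 in WT 2 was 9.18, and the nearest WT array was 8.94. Ifi208 in WT 3 was 6.20, and the nearest was 7.10. The probe set of Ifi211 and Ifi204 in Fntb KO 5 was 5.82, and the nearest Fntb KO array was 6.32. Ifi202b in Fntb KO 3 was 2.49, near the array background, and the nearest was 2.22.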

How the results depend on the processing

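No paired analysis was possible because the labels carry no replicate numbers. Over 21 other settings, 10 of them leaving out 1 array each, the difference of Ifi213 stayed between 1.75 and 2.18. The other 7 members were called in 0 settings, of which Ifi205 and Ifi207 had 20. The setting with the authors' own table holds the same values and gave the same fit. The IFI200 count called higher was 1 in 19 settings, and was 0 with a minimum log2 change of 0.5 and without the 3 low-median arrays. That count is Ifi213 alone, which the same comparison chose, so nothing is read from it. Over all probe sets, 48 were called higher and 117 lower. With a minimum change of 0.5 these counts were 7 and 22, and without the low-median arrays 15 and 29. In both settings 0 list genes were called lower. Lower calls were 182 with only probe sets of 1 gene symbol and 179 with 1 probe set per gene, and in each 1 list gene was called higher. With 1 array left out, 15 to 76 probe sets were called higher and 68 to 151 lower, list genes called higher were 0 to 1 and lower 1 to 3. Differences changed sign without the low-median arrays for Ifi214 (0.0599) and Ifi205 (0.0955). With 1 array left out, Ifi205 ran from -0.226 to 0.0923 and Ifi202b from -0.0267 to 0.0921. The cause was not tested. Dim probe sets near the array background limit Ifi205, Ifi207, Ifi202b and Ifi203-ps, and the lack of probe sequences limits the near-identical copies. Protein identity between members was not analysed here.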
